A study of Arabidopsis thaliana with 12 samples.

Results

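The WRKY transcription factors of Arabidopsis were followed in rosettes that grew with or without a living soil microbiota. The members were 59 genes chosen by their AGI identifiers, and all 59 were present among the 33610 genes of the count table. Rosettes of the Col-0 accession were 21 days old and came from FlowPots, a sterile peat-based pot system that is flushed with a soil slurry. Holoxenic (HO) plants received a live slurry of soil from Malaka or MSU, and axenic (AX) plants received a slurry of the same soil after autoclaving, so that the AX controls also contain soil material. Each of the 4 groups (HO-Malaka, AX-Malaka, HO-MSU and AX-MSU) had 3 RNA-seq libraries, and each library came from a pool of 8 rosettes out of 4 FlowPots that shared 1 microbox. Where titles have Malaka, the descriptions of those samples have Laurel, and the titles were followed. In RNA from whole rosettes, fewer cells of a type and less RNA per cell cannot be told apart.

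WRKY proteins are plant transcription factors named after the WRKY residues of their DNA-binding domain, which holds a zinc finger. They bind the W-box, a short element around the bases TTGAC, and many WRKY promoters carry W-boxes themselves, so that members can regulate each other. In leaves the family is best known for relaying signals from immune receptors and MAP kinase cascades to defence genes, and other members act in senescence, trichomes, stems, pollen and nutrient shortage. Members with a pair of WRKY domains form group I, those with 1 domain form group II with subgroups IIa to IIe, and those with a different zinc finger form group III.

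Totals ran from 10211008 to 22710086 counts per library. Nuclear ribosomal RNA took 9.88% to 21.8% of a library, and HO-Malaka replicate 2 had the highest share and the lowest TMM scaling factor (0.788, where the others lay up to 1.12). Levels are given in CPM, the counts of a gene relative to the TMM-scaled total of its library, and 3 counts correspond to 0.134 to 0.303 CPM depending on the library. The leaf markers, led by RBCS1A of the small Rubisco subunit, summed to 11600 to 12900 CPM in HO and 12400 to 13600 CPM in AX libraries, and the 5 root markers together stayed at or below 0.758 CPM. SAG12, the defining marker of leaf senescence, had 0 counts in every library, while the 5 senescence markers together gave 14.6 to 22 CPM in HO and 10.1 to 18.6 CPM in AX libraries. The 12 genes of rapid stress and handling summed to 119 to 175 CPM in HO and 106 to 166 CPM in AX libraries. The part that these markers have in the differences between HO and AX plants was not tested.

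The 300 bases before the annotated transcript start are shown for the 4 members with the largest HO against AX differences over both soils. They are printed 5′ to 3′ on the strand of the gene, from the TAIR10.1 assembly of RefSeq. Capitals mark W-boxes, searched as TTGACC or TTGACT on both strands, which read GGTCAA or AGTCAA where the box lies on the other strand. The windows are chr5:8154711-8155010 on the minus strand for WRKY30, chr5:20090348-20090647 on the plus strand for WRKY48, chr2:10629362-10629661 on the plus strand for WRKY60 and chr4:12393983-12394282 on the minus strand for WRKY53.
WRKY30: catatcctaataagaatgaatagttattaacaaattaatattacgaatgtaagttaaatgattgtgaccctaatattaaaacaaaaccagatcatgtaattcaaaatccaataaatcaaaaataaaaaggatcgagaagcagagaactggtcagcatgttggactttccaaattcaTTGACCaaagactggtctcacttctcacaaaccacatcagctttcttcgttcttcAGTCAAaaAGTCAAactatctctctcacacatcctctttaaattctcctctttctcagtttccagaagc
WRKY48: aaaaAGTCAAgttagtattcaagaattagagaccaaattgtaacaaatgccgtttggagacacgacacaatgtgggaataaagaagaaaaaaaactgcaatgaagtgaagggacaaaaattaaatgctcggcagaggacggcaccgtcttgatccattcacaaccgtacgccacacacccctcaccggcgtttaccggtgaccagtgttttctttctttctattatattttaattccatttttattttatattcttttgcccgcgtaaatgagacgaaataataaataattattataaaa
WRKY60: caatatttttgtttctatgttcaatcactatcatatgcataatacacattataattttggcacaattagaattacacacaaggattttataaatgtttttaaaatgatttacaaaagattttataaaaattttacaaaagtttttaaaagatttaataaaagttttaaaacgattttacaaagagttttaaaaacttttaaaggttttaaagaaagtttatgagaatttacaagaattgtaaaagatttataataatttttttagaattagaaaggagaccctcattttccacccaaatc
WRKY53: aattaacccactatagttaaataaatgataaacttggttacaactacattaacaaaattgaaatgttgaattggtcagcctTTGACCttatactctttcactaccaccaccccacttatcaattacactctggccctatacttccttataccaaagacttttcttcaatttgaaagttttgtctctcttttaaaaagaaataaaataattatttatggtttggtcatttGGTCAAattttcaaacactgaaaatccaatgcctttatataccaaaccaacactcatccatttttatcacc

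The WRKY30 window held 3 W-boxes, at 124 to 119, 69 to 64 and 61 to 56 bases before the start, with the last pair close together and on the opposite strand. WRKY53 had 2, at 219 to 214 and 71 to 66 bases, WRKY48 had 1 at 296 to 291 bases, and WRKY60 had 0 in this window. A W-box stood in 26 of the 59 member windows (44.1%), in 8 of the 15 members that were higher in HO plants over both soils (53.3%) and in 8854 of the 27437 windows of all protein-coding genes (32.3%). A match of 6 letters is a description and not a binding site, and these shares were not tested against each other.

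Of the 59 members, 36 had enough counts to be tested and 23 did not. The 59 members together gave 222 to 273 CPM in the HO libraries (253 ± 20.1, mean ± SD, n = 6) and from 161 CPM upwards in the AX libraries (180.0 ± 12.7, n = 6), and every HO sum was above every AX sum. WRKY33 alone held 16.7% of this sum in HO and 14.5% in AX plants. Per kilobase of exon, WRKY33 was also the most abundant member, with a mean level of 20.9 CPM per kb in HO and 12.8 in AX plants. It was followed in both by WRKY11, with 9.79 CPM per kb in HO and 8.2 in AX plants. WRKY53 stood at rank 6 of the members in HO and at rank 15 in AX plants, WRKY18 at ranks 13 and 24, and WRKY60 at ranks 18 and 27.

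**Figure D1:**
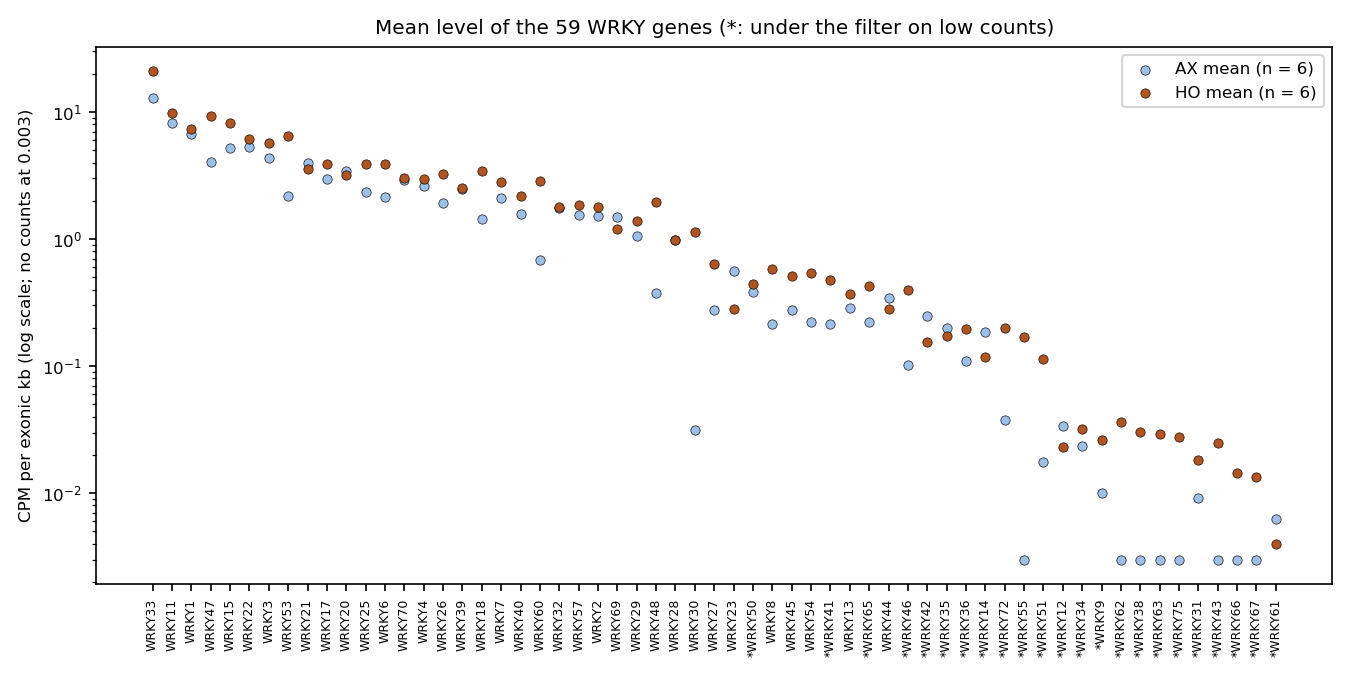
Mean level of each of the 59 WRKY genes in HO (brown) and AX (blue) rosettes, in CPM per kilobase of exon on a log axis, each point the mean of 6 libraries, with genes without counts drawn at 0.003 and genes under the filter on low counts marked by a star. WRKY33 leads in both, and the points of WRKY30, WRKY48 and WRKY60 lie far apart between HO and AX.

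Differences between HO and AX plants were tested with the quasi-likelihood test of edgeR over all 17588 genes with enough counts, and a member is called higher or lower at a Benjamini-Hochberg adjusted p under 0.05. With Malaka soil, 9 of the 36 tested members (25%) were higher in HO plants, where 2.49% of all tested genes were. With MSU soil it was again 9 members, against 3.3% of all genes. Over both soils, with soil as a term, it was 15 members (41.7%), against 5.01% of all genes. Among them 7, 6 and 8 members also had a log2 fold change (log2FC) of at least 1, against 1.25%, 1.42% and 1.56% of all genes.

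No member was called lower in HO plants. The count of lower members by edgeR was 0 with Malaka soil, 0 with MSU soil and 0 over both, where 1.89%, 3.28% and 5.16% of all genes were lower, and DESeq2 also called 0 in each. At an unadjusted p under 0.05, 2 members were lower with Malaka soil, 0 with MSU soil and 1 over both soils. In either direction 17, 17 and 20 of the 36 members were at that p, where 2890, 3332 and 3886 of all 17588 genes were.

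The median log2FC of the tested members was 0.41 with Malaka soil, 0.35 with MSU soil and 0.41 over both soils, where the median of all tested genes was 0.01 in each. The difference was positive for 30, 29 and 31 of the 36 members. Leaving out AX-Malaka replicate 2 gave a Malaka median of 0.25, and leaving out HO-Malaka replicate 1 gave 0.27, each over 38 tested members. With total counts the median with MSU soil was 0.18, with 23 of 36 members positive. WRKY8, WRKY13, WRKY27, WRKY30, WRKY45 and WRKY54 had enough counts in the HO libraries alone. The other 30 members also passed the filter within the AX libraries, and among these 8, 8 and 12 were higher and 0 lower. Their medians were 0.33, 0.27 and 0.32, and among the 16656 genes that passed in AX libraries 1.97%, 2.72% and 4.3% were higher.

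Among the 36 tested members, the HO libraries lay wholly above the AX libraries of the same soil at 15 with Malaka soil and at 14 with MSU soil, as they did at 10.1% and 12.4% of all tested genes. They lay wholly below at 1 member with Malaka soil (all genes 9.11%) and at 2 with MSU soil (all genes 12.4%). Over all 12 libraries, HO lay above AX without overlap at WRKY6, WRKY15, WRKY18, WRKY30, WRKY47, WRKY48, WRKY53 and WRKY60, which are 8 members where 2.51% of all genes did so. WRKY21 (AT2G30590), of subgroup IId, was the 1 member whose HO libraries all lay below the AX libraries (all genes 1.85%), at 7.4 to 7.73 CPM against 7.74 to 8.95 CPM, with a log2FC of -0.17 ± 0.10 (SE) and an edgeR adjusted p of 0.318.

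The 15 members fell into sets by soil. WRKY6, WRKY15, WRKY30, WRKY47, WRKY48, WRKY53 and WRKY60 were higher with each soil taken separately, which made 7 members where 1.47% of all tested genes were higher with both. WRKY26 and WRKY33 were called with Malaka soil alone, and WRKY18 and WRKY25 with MSU soil alone. WRKY3, WRKY8, WRKY11 and WRKY27 were called over both soils together and in neither soil by itself.

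Scaling by total counts in place of TMM moved the median log2FC of all genes to -0.16 with MSU soil and -0.10 over both soils, and ended several of these calls. They were WRKY15 with Malaka soil (edgeR adjusted p = 0.12), WRKY6 (0.15), WRKY15 (0.199) and WRKY25 (0.0665) with MSU soil, and WRKY3 (0.226), WRKY8 (0.0802), WRKY11 (0.541) and WRKY27 (0.0923) over both soils. The log2FC of each stayed positive. A filter of 0.5 CPM in 1 library ended the calls of WRKY8 (0.0674), WRKY11 (0.0501) and WRKY27 (0.0501) over both soils.

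**Figure D2:**
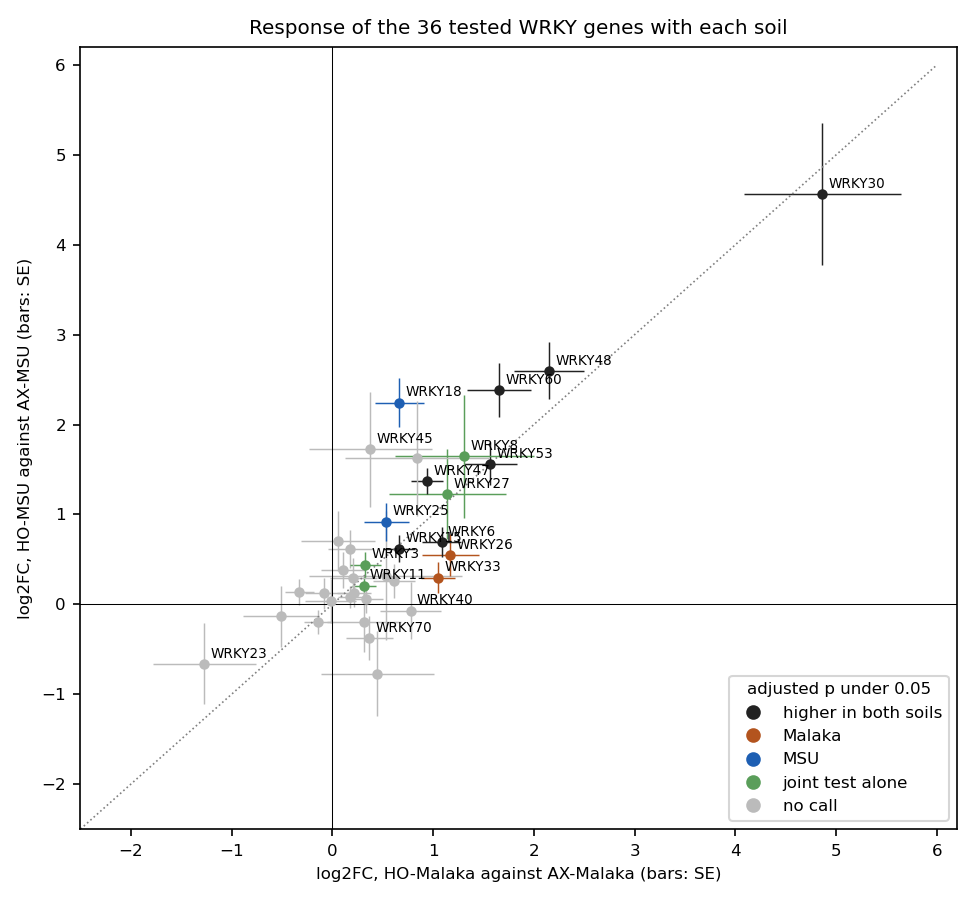
Log2FC of HO against AX plants with Malaka soil (horizontal axis) and with MSU soil (vertical axis) for the 36 tested WRKY genes, with bars of 1 standard error on each axis, a dotted line of equal response and colours for the soil in which a gene was called. WRKY30, WRKY48, WRKY60 and WRKY53 lie in the upper right, WRKY18 lies above the line and WRKY33 and WRKY40 lie below it.

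Group III holds the member with the largest difference, WRKY30 (AT5G24110), a gene on chromosome 5 known to rise early after pathogen, salicylic acid and oxidative signals. The authors had already named WRKY30 among the genes depleted in AX plants of these data. WRKY30 had 2.21, 0.846 and 2.05 CPM in the HO-Malaka libraries and 1.65, 0.981 and 1.06 CPM in the HO-MSU libraries. In AX libraries it had 0, 0.126 and 0 CPM with Malaka soil and 0.119, 0 and 0 CPM with MSU soil. Transcripts of WRKY30 were thus found in every HO library and in 2 of the 6 AX libraries, where 4 counts stood against 139 in the HO libraries. The ratio of HO to AX, adjusted for library size, was 30.9, with a 95% counting interval of 11.8 to 115, and the edgeR adjusted p over both soils was 6.04e-07. WRKY30 passed the filter on low counts only through the HO libraries, so this p adds no support beyond the counts. With a single soil the ratio was 34.7 (9.27 to 291) for Malaka and 27.5 (7.3 to 232) for MSU.

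WRKY53 (AT4G23810), known as a regulator of leaf senescence and of basal defence, had 11.2, 6.21 and 7.27 CPM in HO-Malaka libraries against 4.23, 1.45 and 3.03 CPM in AX-Malaka libraries. With soil from MSU, WRKY53 had 11.9, 9.81 and 12.2 CPM in HO against 5.01, 3.38 and 2.89 CPM in AX libraries. The lowest HO library stood above the highest AX library with either soil. The log2FC of WRKY53 was 1.57 ± 0.27 (SE) with Malaka soil, 1.56 ± 0.24 with MSU soil and 1.56 ± 0.18 over both, with edgeR adjusted p of 0.000316, 5.32e-05 and 5.15e-07. The exons of WRKY53 overlap those of AT4G23800 on the opposite strand by 311 bases, and whether counting used the strand is not given in the sources used here.

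The other tested members of group III are WRKY70 (AT3G56400) and WRKY54 (AT2G40750), which act together in salicylic acid signalling and restrain senescence. WRKY70 had 4.14 to 7.15 CPM in HO-Malaka and 3.08 to 5.51 CPM in AX-Malaka libraries, and 2.68 to 3.62 CPM in HO-MSU and 3.04 to 4.53 CPM in AX-MSU libraries. These overlapped with both soils. Its log2FC was 0.37 with Malaka soil and -0.37 with MSU soil, neither of them called. WRKY54 had 0.094 to 1.73 CPM in HO and 0.119 to 0.559 CPM in AX libraries, and its log2FC of 1.28 over both soils had an edgeR adjusted p of 0.0912. Without HO-Malaka replicate 2 it was called over both soils (log2FC 1.46, 0.0422). WRKY54 passed the filter on low counts only through the HO libraries, so that call adds no support beyond the counts.

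Subgroup IIa has 3 members, WRKY18, WRKY40 and WRKY60, which can bind each other and act partly redundantly in defence against biotrophic pathogens and in abscisic acid responses. WRKY60 (AT2G25000) had 2.79, 4.61 and 3.67 CPM in HO-Malaka against 0.799, 1.32 and 1.31 CPM in AX-Malaka libraries, and 5.62, 4.24 and 6.33 CPM in HO-MSU against 0.716, 1.52 and 0.846 CPM in AX-MSU libraries. Every HO library lay above every AX library. The log2FC of WRKY60 was 1.66 ± 0.32 (SE) with Malaka soil, 2.39 ± 0.30 with MSU soil and 2.05 ± 0.22 over both, a 4.13-fold difference with an edgeR adjusted p of 2.11e-07.

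WRKY18 (AT4G31800) had 6.4, 4.8 and 9.25 CPM in HO-Malaka libraries against 4.39, 4.28 and 4.35 CPM in AX-Malaka libraries. The MSU libraries had 7.64, 4.91 and 9.05 CPM in HO libraries against 2.03, 0.898 and 1.48 CPM in AX libraries. HO libraries were at similar levels with both soils, and it was the AX libraries that separated, those with autoclaved MSU soil being lower than those with autoclaved Malaka soil. The log2FC of WRKY18 was 2.25 ± 0.27 (SE) with MSU soil (edgeR adjusted p = 1.95e-06) and 0.66 ± 0.25 with Malaka soil (adjusted p = 0.137). Without HO-Malaka replicate 2 the difference with Malaka soil was also called (log2FC 0.84, adjusted p = 0.0356), and without HO-Malaka replicate 3 its log2FC was 0.39.

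WRKY40 (AT1G80840) had 2.73, 3.76 and 5.01 CPM in HO-Malaka against 2.4, 2.45 and 1.72 CPM in AX-Malaka libraries, and 1.96, 1.43 and 2.41 CPM in HO-MSU against 2.68, 1.17 and 2.04 CPM in AX-MSU libraries. The HO libraries lay above the AX libraries with Malaka soil and overlapped them with MSU soil. Over both soils its log2FC was 0.37 ± 0.23 (SE) with an edgeR adjusted p of 0.366. WRKY40 was the 1 member of the subgroup with no call in any of these comparisons.

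**Figure D3:**
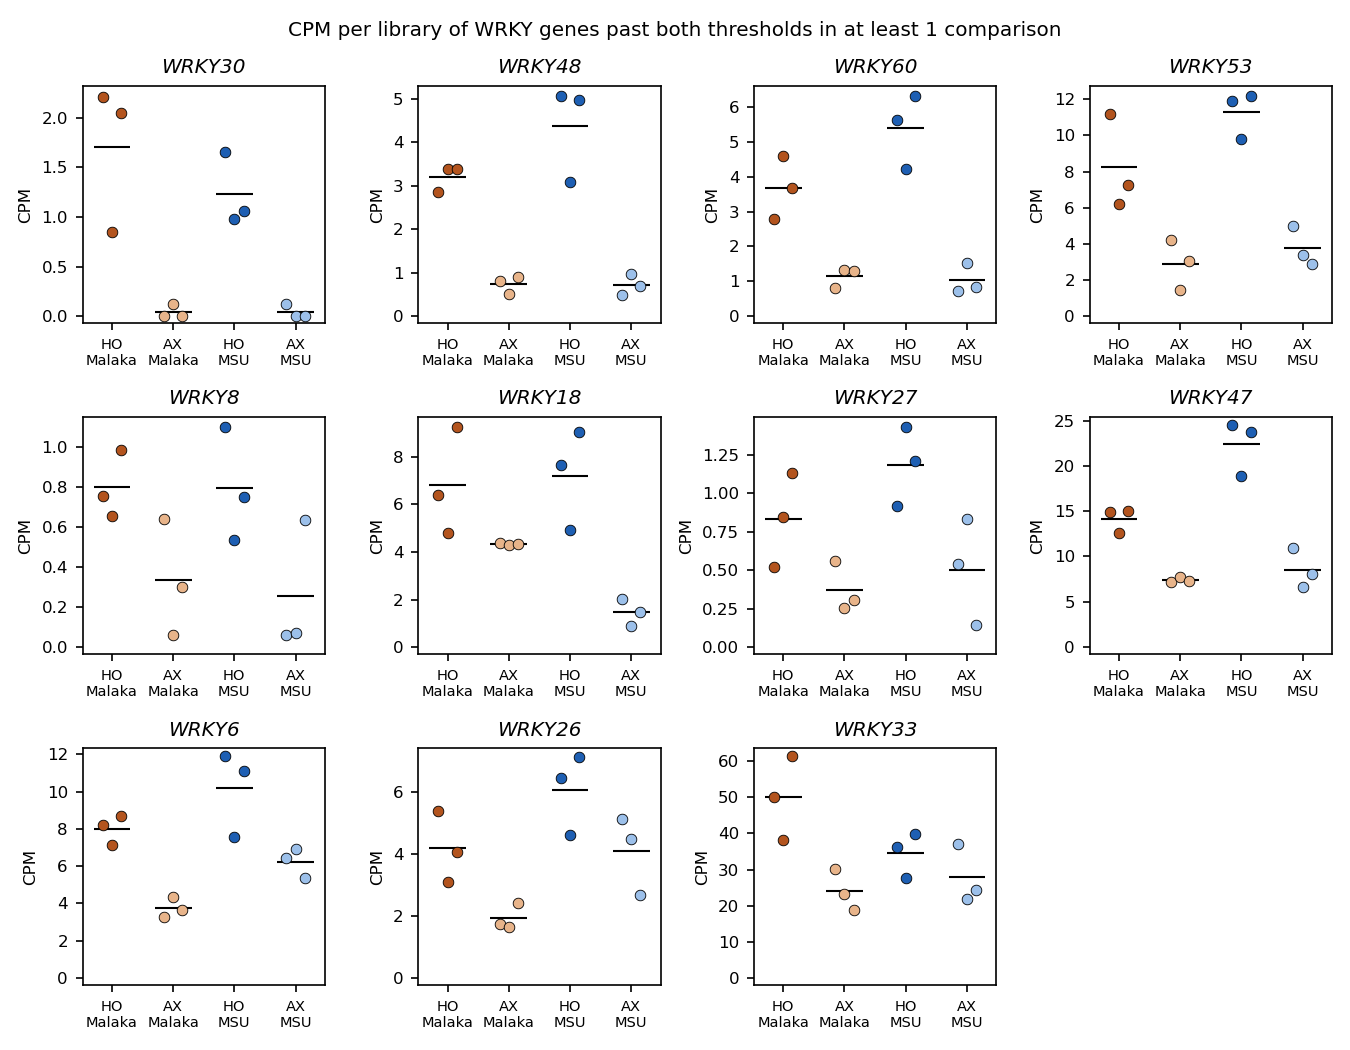
CPM of the 11 WRKY genes that were higher in HO plants with a log2FC of at least 1 in at least 1 comparison, each point a library and each line the mean of 3 libraries, with Malaka soil in brown and MSU soil in blue and AX in the lighter shade. WRKY30 is at or near 0 in all AX libraries, and AX-MSU libraries of WRKY18 lie below those of AX-Malaka.

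WRKY48 (AT5G49520) of subgroup IIc, a stress-induced gene that represses basal defence against Pseudomonas syringae, had 2.85, 3.38 and 3.39 CPM in HO-Malaka against 0.799, 0.503 and 0.909 CPM in AX-Malaka libraries. The MSU values were 5.07, 3.08 and 4.98 CPM in HO against 0.477, 0.967 and 0.705 CPM in AX libraries. All AX libraries were under 1 CPM and all HO libraries at 2.85 CPM or more. Its log2FC was 2.15 ± 0.35 (SE) with Malaka soil, 2.60 ± 0.32 with MSU soil and 2.40 ± 0.23 over both, a 5.26-fold difference with an edgeR adjusted p of 3.34e-08.

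WRKY8 (AT5G46350), also of subgroup IIc and known from wounding and salt responses, was near the limit of detection. WRKY8 passed the filter on low counts only through the HO libraries, so its call adds no support beyond the counts. It had 0.756, 0.658 and 0.988 CPM in HO-Malaka against 0.639, 0.0629 and 0.303 CPM in AX-Malaka libraries, and 1.1, 0.535 and 0.754 CPM in HO-MSU against 0.0596, 0.0691 and 0.634 CPM in AX-MSU libraries. HO and AX libraries overlapped with MSU soil. The log2FC over both soils was 1.48 ± 0.48 (SE) with an edgeR adjusted p of 0.0467. This call was kept only without HO-Malaka replicate 1, AX-Malaka replicate 1 or AX-MSU replicate 3, and without any other single library the adjusted p lay between 0.0501 and 0.129. With MSU soil alone, the log2FC of WRKY8 went from 1.65 to 3.45 without AX-MSU replicate 3, where it was called (0.0262).

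The other 5 tested members of subgroup IIc were not called. WRKY23 (AT2G47260), a target of auxin signalling in roots, was the member with the most negative log2FC over both soils, -0.93 ± 0.34 (SE), with 0.188 to 0.758 CPM in HO and 0.629 to 1.37 CPM in AX libraries and an edgeR adjusted p of 0.081. WRKY28 (AT4G18170) was at 1.22 to 1.63 CPM in HO and 0.818 to 1.9 CPM in AX libraries, and WRKY57 (AT1G69310) at 3.09 to 4.42 and 2.54 to 3.99 CPM. WRKY45 (AT3G01970) and WRKY13 (AT4G39410) stayed at or below 1.13 CPM in all libraries. The log2FC of WRKY45 was 1.72 ± 0.64 (SE) with MSU soil (edgeR adjusted p = 0.115) and 0.38 ± 0.61 with Malaka soil (0.836). WRKY45 was called over both soils without AX-Malaka replicate 3 (log2FC 1.57, 0.0273). It passed the filter on low counts only through the HO libraries, so that call adds no support beyond the counts.

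Subgroup IIb had 2 tested members, and both were higher with each soil. WRKY47 (AT4G01720) had 14.9, 12.6 and 15 CPM in HO-Malaka against 7.19, 7.74 and 7.28 CPM in AX-Malaka libraries, and 24.5, 18.9 and 23.7 CPM in HO-MSU against 10.9, 6.63 and 8.1 CPM in AX-MSU libraries. The groups did not overlap with either soil, and the HO libraries with MSU soil were all above those with Malaka soil. WRKY47 had a log2FC of 0.94 ± 0.16 (SE) with Malaka soil, 1.37 ± 0.14 with MSU soil and 1.17 ± 0.11 over both, with an edgeR adjusted p of 3.26e-08 over both, the smallest of the family.

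WRKY6 (AT1G62300), a regulator of senescence, defence and phosphate transport genes, had 8.2, 7.15 and 8.68 CPM in HO-Malaka against 3.27, 4.34 and 3.64 CPM in AX-Malaka libraries. With MSU soil it had 11.9, 7.58 and 11.1 CPM in HO against 6.44, 6.91 and 5.36 CPM in AX libraries. Its HO libraries were above its AX libraries with each soil. The log2FC of WRKY6 was 1.09 ± 0.19 (SE) with Malaka soil (edgeR adjusted p = 0.000569), 0.69 ± 0.17 with MSU soil (0.0107) and 0.87 ± 0.13 over both (3.72e-05). The call with MSU soil was lost without HO-MSU replicate 1 (adjusted p = 0.095), HO-MSU replicate 3 (0.0622) or AX-MSU replicate 3 (0.0735).

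Group I has 10 tested members, of which 4 were higher in HO plants over both soils, all with a log2FC under 1. WRKY33 (AT2G38470), a substrate of the MAP kinases MPK3 and MPK6 that activates camalexin synthesis and resistance to Botrytis, had 50.1, 38.3 and 61.5 CPM in HO-Malaka against 30.3, 23.3 and 18.7 CPM in AX-Malaka libraries. For MSU the values were 36.2, 27.7 and 39.8 CPM in HO against 37.2, 22 and 24.3 CPM in AX libraries. HO and AX libraries were apart with Malaka soil and overlapped with MSU soil. The log2FC of WRKY33 was 1.05 ± 0.17 (SE) with Malaka soil (edgeR adjusted p = 0.000215) and 0.30 ± 0.17 with MSU soil (0.364). Without AX-MSU replicate 1, the highest AX library, it was called with MSU soil too (log2FC 0.57, adjusted p = 0.0485), and without AX-MSU replicate 2 the log2FC was 0.15.

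WRKY25 and WRKY26 are close relatives of WRKY33 and act with it in heat tolerance. WRKY26 (AT5G07100) had 5.41, 3.1 and 4.09 CPM in HO-Malaka against 1.76, 1.64 and 2.43 CPM in AX-Malaka libraries, and 6.48, 4.64 and 7.16 CPM in HO-MSU against 5.13, 4.49 and 2.68 CPM in AX-MSU libraries. They were apart with Malaka soil and overlapped with MSU soil, as those of WRKY33 did. The log2FC of WRKY26 was 1.17 ± 0.28 (SE) with Malaka soil (edgeR adjusted p = 0.0114) and 0.55 ± 0.23 with MSU soil (0.188). Its call with Malaka soil was lost without HO-Malaka replicate 1 (adjusted p = 0.0853), AX-Malaka replicate 1 (0.0554) or AX-Malaka replicate 2 (0.0889), and was 0.00477 over both soils with all libraries.

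WRKY25 (AT2G30250) was at 4.04 to 7.13 CPM in HO-Malaka, 3.27 to 4.65 CPM in AX-Malaka, 5.84 to 9.35 CPM in HO-MSU and 3.45 to 4.58 CPM in AX-MSU libraries. Its log2FC was 0.92 ± 0.21 (SE) with MSU soil (edgeR adjusted p = 0.00549) and 0.54 ± 0.23 with Malaka soil (0.212). The call with MSU soil was lost without HO-MSU replicate 3 (0.0516) or AX-MSU replicate 2 (0.0552). WRKY3 (AT2G03340), which acts with WRKY4 in resistance to necrotrophic fungi, was at 10.3 to 14.1 CPM in HO and 7.99 to 11.9 CPM in AX libraries, and its log2FC over both soils was 0.39 ± 0.11 (edgeR adjusted p = 0.0167). Leaving out AX-Malaka replicate 1 (0.0505) or AX-MSU replicate 3 (0.0585) ended that call, and leaving out HO-Malaka replicate 1 (0.0401) or AX-Malaka replicate 3 (0.0495) gave a call with MSU soil.

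The remaining tested genes of group I gave no call between HO and AX. WRKY1 (AT2G04880) was at 14.2 to 17.8 CPM in HO and 12.7 to 17.4 CPM in AX libraries, WRKY4 (AT1G13960) at 6.85 to 9.04 and 5.19 to 8.47 CPM, and WRKY20 (AT4G26640) at 10.2 to 15.4 and 10.7 to 18.4 CPM. WRKY2 (AT5G56270), known from pollen and the early embryo, and WRKY32 (AT4G30935) had a log2FC over both soils of 0.25 and 0.01. WRKY44 (AT2G37260), the trichome and seed coat regulator TTG2, was at 0.428 to 0.754 CPM in HO and 0.24 to 1.19 CPM in AX libraries.

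Subgroup IId, whose members bind calmodulin, had all 6 of its members tested and 2 of them higher over both soils. WRKY15 (AT2G23320), known from growth and oxidative stress responses, had 9.83, 8.65 and 11.5 CPM in HO-Malaka against 5.75, 6.86 and 6.37 CPM in AX-Malaka libraries. With MSU soil it had 12.7, 10.3 and 9.8 CPM in HO against 7.93, 6.63 and 6.76 CPM in AX libraries. The libraries were apart with each soil, by a log2FC of 0.66 ± 0.16 (SE) with Malaka soil (edgeR adjusted p = 0.0112), 0.62 ± 0.15 with MSU soil (0.00813) and 0.64 ± 0.11 over both (0.000123). The call was lost with Malaka soil without HO-Malaka replicate 3 (0.0948) or AX-Malaka replicate 1 (0.0681), and with MSU soil without HO-MSU replicate 1 (0.0809) or AX-MSU replicate 2 (0.0589).

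WRKY11 (AT4G31550), which with WRKY17 restrains basal resistance to bacteria, was at 15 to 19 CPM in HO and 13.3 to 16.7 CPM in AX libraries. Its log2FC of 0.26 ± 0.08 (SE) over both soils had an edgeR adjusted p of 0.0432, which rose to between 0.0523 and 0.115 without any 1 of 9 libraries, and was kept without HO-Malaka replicate 2, HO-MSU replicate 3 or AX-MSU replicate 3. With Malaka soil alone WRKY11 was called only without HO-Malaka replicate 2 (0.0431). WRKY17 (AT2G24570) was at 5.01 to 6.78 CPM in HO and 2.74 to 5.59 CPM in AX libraries, with a log2FC of 0.40 that was not called. With MSU soil WRKY17 was called without AX-MSU replicate 3 (log2FC 0.89, edgeR adjusted p = 0.0209) or without a filter on low counts (0.0467). WRKY7 (AT4G24240) and WRKY39 (AT3G04670) had a log2FC of 0.42 and 0.03 over both soils, and neither was called. WRKY7 was called over both soils without HO-Malaka replicate 3 (edgeR adjusted p = 0.0262) or AX-MSU replicate 2 (0.0258), and with Malaka soil without HO-Malaka replicate 3 (0.0236).

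In subgroup IIe, WRKY27 (AT5G52830), known for its part in bacterial wilt symptoms, had 0.523, 0.846 and 1.13 CPM in HO-Malaka against 0.559, 0.252 and 0.303 CPM in AX-Malaka libraries, and 0.916, 1.43 and 1.21 CPM in HO-MSU against 0.537, 0.829 and 0.141 CPM in AX-MSU libraries. HO and AX libraries overlapped with Malaka soil. WRKY27 also passed the filter on low counts only through the HO libraries, so its call adds no support beyond the counts. The log2FC over both soils was 1.19 ± 0.37 (SE) with an edgeR adjusted p of 0.0392, and it was kept only without HO-Malaka replicate 1, AX-Malaka replicate 1, HO-MSU replicate 1 or AX-MSU replicate 2. Without any other single library the adjusted p of WRKY27 lay between 0.0636 and 0.128.

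WRKY22 (AT4G01250) and WRKY29 (AT4G23550), the members placed downstream of the flagellin receptor FLS2, were at 6.24 to 9.05 and 0.93 to 2.93 CPM in HO libraries and at 5.54 to 7.69 and 1.01 to 1.92 CPM in AX libraries. Their log2FC over both soils was 0.19 ± 0.12 (SE) and 0.41 ± 0.25, with edgeR adjusted p of 0.367 and 0.362. WRKY69 (AT3G58710) had a log2FC of -0.30 and was not called. The exons of WRKY29 and WRKY69 overlap genes on the opposite strand by 251 and 264 bases.

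**Figure D4:**
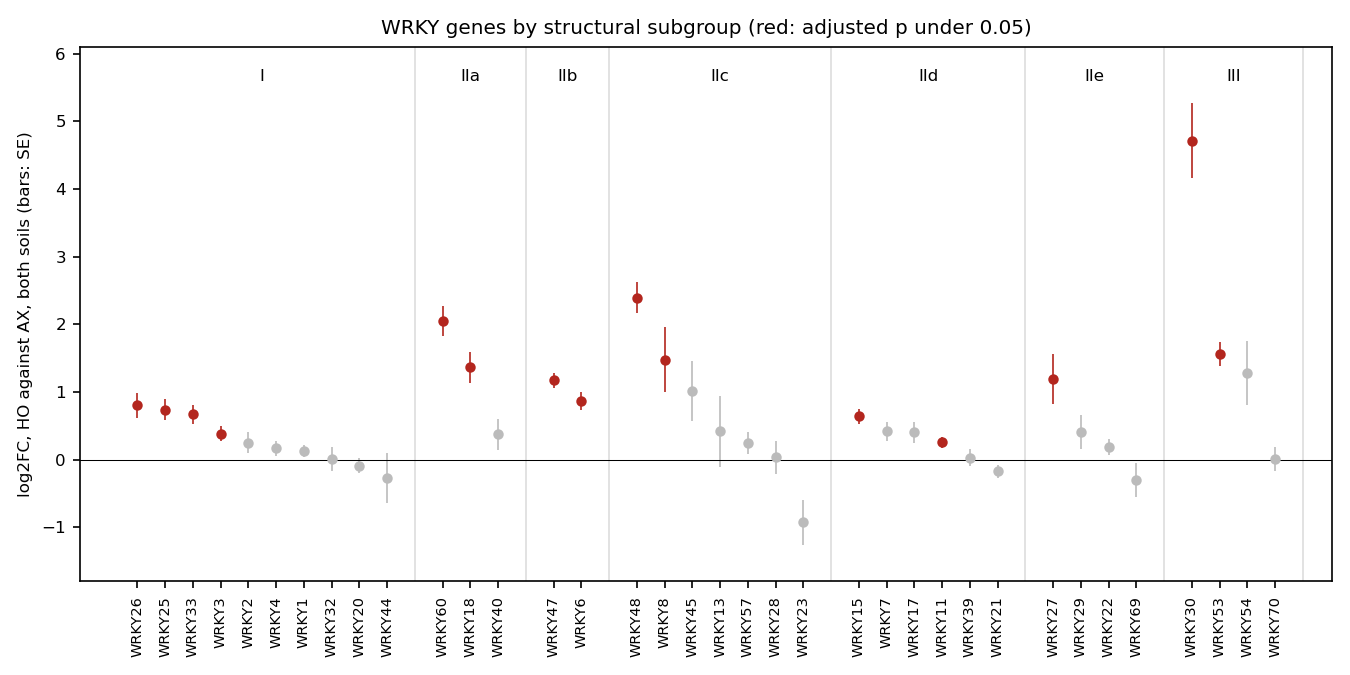
Log2FC of HO against AX plants over both soils for the 36 tested WRKY genes, ordered within their structural subgroups, with bars of 1 standard error and red points for an edgeR adjusted p under 0.05. Red points occur in each subgroup, from WRKY11 at 0.26 to WRKY30 at 4.72, and no red point lies below 0.

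Whether the response differed between the soils was tested as an interaction. edgeR called 0 members, where 0.279% of all tested genes were called. At an unadjusted p under 0.05 were 4 of the 36 members, and 1427 of all 17588 genes. DESeq2 called 1 member, WRKY18 (adjusted p = 0.0222), where it called 57 of 12814 genes. In edgeR the response of WRKY18 was larger with MSU soil than with Malaka soil by 1.58 ± 0.37 (SE) on the log2 scale, with an adjusted p of 0.0657, and WRKY33 differed the other way by -0.75 ± 0.24 (adjusted p = 0.278). The WRKY18 interaction passed the threshold in edgeR when HO-Malaka replicate 2 (0.0467), HO-Malaka replicate 3 (0.026), HO-MSU replicate 2 (0.0192) or AX-MSU replicate 1 (0.0486) was left out. That of WRKY33 passed without HO-Malaka replicate 2 (0.0345).

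Between the soils themselves, 1 member was called in AX plants, where 0.648% of all genes were called. WRKY18 was lower in AX-MSU than in AX-Malaka plants by a log2FC of -1.54 ± 0.30 (SE, edgeR adjusted p = 0.00764), and this call was lost without AX-MSU replicate 2 (log2FC -1.29, adjusted p = 0.0993), which left 0 members. WRKY26 was higher in AX-MSU plants by 1.12 ± 0.28 with an adjusted p of 0.0581, which fell below the threshold without HO-Malaka replicate 1 (0.0269), HO-Malaka replicate 2 (0.0282), HO-MSU replicate 2 (0.0479) or AX-MSU replicate 3 (0.0155).

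In HO plants 1 member was called between the soils, where 0.29% of all genes were called. WRKY47 was higher in HO-MSU than in HO-Malaka plants by 0.65 ± 0.14 (SE, edgeR adjusted p = 0.0352), and this call was lost without HO-Malaka replicate 3 (0.099), AX-Malaka replicate 3 (0.0554), HO-MSU replicate 1 (0.168) or HO-MSU replicate 3 (0.181). Without HO-Malaka replicate 2, WRKY33 (log2FC -0.70, adjusted p = 0.0222) and WRKY70 (-1.08, 0.0176) were also called, both lower in HO-MSU plants.

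The 23 members under the filter had at most 34 counts in any library, and 12 of them had 10 counts or fewer over all 12 libraries. Their mean CPM was higher in HO plants at 18 and lower at 5, and these differences were mostly a few counts. WRKY55 (AT2G40740), the group III neighbour of WRKY54 on chromosome 2, had 7, 2 and 7 counts in HO-Malaka libraries, 0, 1 and 1 in HO-MSU libraries and 0 in all AX libraries. With the AX libraries together set to a floor of 3 counts, the 18 counts in HO plants were 5.34-fold higher. The lower bound of the 95% counting interval was 3.92-fold.

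WRKY46 (AT2G46400), a group III gene that acts with WRKY53 and WRKY70 in basal resistance, had 10, 6 and 7 counts in HO-Malaka, 6, 4 and 14 in HO-MSU, 6, 0 and 0 in AX-Malaka and 0, 1 and 4 in AX-MSU libraries. The ratio of HO to AX was 3.81 with a 95% counting interval of 1.95 to 8.14. WRKY72 (AT5G15130), of subgroup IIb and known from basal immunity, had 5, 4 and 12 counts in HO-Malaka and 0 in all AX-Malaka libraries. With the AX-Malaka libraries set to the floor of 3 counts this was 6.39-fold, and the lower 95% counting bound was 4.75-fold. With MSU soil its counts overlapped, at 10, 2 and 3 in HO against 3, 3 and 1 in AX libraries.

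Of the members linked to salicylic acid, WRKY38 (AT5G22570) and WRKY62 (AT5G01900) had 4 counts each in HO and 0 in AX plants. WRKY51 (AT5G64810) had 10 counts in HO and 1 in AX plants, and its partner WRKY50 (AT5G26170) had 44 and 34. WRKY41 (AT4G11070) had 49 counts in HO and 21 in AX plants, with 491 bases of exon overlapped on the opposite strand. WRKY65 (AT1G29280) had 69 and 28 counts, of which 34 came from HO-MSU replicate 2 alone.

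The others under the filter include genes known from other organs and stages. WRKY34 (AT4G26440), a pollen gene, had 5 counts in HO and 4 in AX plants, and WRKY12 (AT2G44745), a regulator of stem secondary walls, had 2 and 3. WRKY75 (AT5G13080), known from phosphate shortage and roots, had 3 counts, all in HO-MSU replicate 2. WRKY42 (AT4G04450), WRKY36 (AT1G69810), WRKY35 (AT2G34830) and WRKY14 (AT1G30650) had between 20 and 49 counts in each of HO and AX plants. With Malaka soil WRKY42 had 12 counts in HO and 28 in AX plants, a ratio of 0.391 with a 95% counting interval of 0.181 to 0.794. With MSU soil it had 26 and 21 counts, a ratio of 1.08 (0.585 to 2.02). Under a filter of 0.5 CPM in 1 library WRKY42 was not called with Malaka soil (log2FC -1.37, edgeR adjusted p = 0.333). WRKY9 (AT1G68150), WRKY31 (AT4G22070), WRKY61 (AT1G18860), WRKY43 (AT2G46130), WRKY63 (AT1G66600), WRKY66 (AT1G80590) and WRKY67 (AT1G66550) had at most 5 counts in either. At this depth a difference at genes with so few counts was not detectable.

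Genes that work with WRKY factors were read from lists drawn up by known roles, with earlier results of these data known. The shares of higher genes in these lists are therefore descriptions and give no support. VQ proteins bind WRKY domains through a short VQ motif, and of 34 such genes 19 were tested, of which 5 (26.3%) were higher and 0 lower over both soils, where 5.01% of all tested genes were higher and 5.16% lower. They were VQ28 (AT4G20000), with 73 counts in HO and 0 in AX plants, VQ23 or SIB1 (AT3G56710), a partner of WRKY33, with a log2FC of 1.53 ± 0.37 (SE, edgeR adjusted p = 0.00675), VQ1 (AT1G17147) with 1.29 ± 0.32 (0.00803), VQ3 (AT1G21326) with 0.99 ± 0.30 (0.029) and VQ22 or JAV1 (AT3G22160), a repressor of jasmonate defence, with 0.72 ± 0.22 (0.0369). At an unadjusted p under 0.05 there were 8 of the 19, in either direction, where 3886 of all 17588 genes were. The median log2FC of the 19 was 0.05, against 0.01 for all genes. The VQ genes called with a single soil were VQ1 and VQ28 with Malaka soil and VQ23 and VQ28 with MSU soil. VQ28 had no counts in AX plants, so it passed the filter on low counts only through the HO libraries. The share of higher VQ genes includes it.

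The kinases that signal to WRKY factors were nearly even between HO and AX plants. All 15 were tested, with a median log2FC of 0.06, and 2 (13.3%) were higher over both soils and 0 lower, against 5.01% and 5.16% of all genes. MKK1 (AT4G26070), a kinase of the MPK4 cascade, had a log2FC of 0.58 ± 0.18 (SE, edgeR adjusted p = 0.0339), and CPK1 (AT5G04870), a calcium-dependent kinase, had 0.25 ± 0.08 (0.0449). MPK3 (AT3G45640) was at 0.08 ± 0.10 and MPK6 (AT2G43790) at 0.11 ± 0.10, neither called.

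Genes described as WRKY targets gave 4 higher and 1 lower of 10 tested over both soils, where 5.01% of all genes were higher and 5.16% lower, with a median log2FC of 0.38. The authors had already reported FRK1, CYP71A12 and CYP71B15 of this list as depleted in AX plants of these data. FRK1 (AT2G19190), the flagellin-induced receptor kinase, had 408 counts in HO and 3 in AX plants. CYP71A12 (AT2G30750), of the indole defence pathway, had 132 and 1. With so few counts in AX plants, FRK1 and CYP71A12 passed the filter on low counts only through the HO libraries. The count of higher targets includes both. CBP60G (AT5G26920), which switches on salicylic acid synthesis, had a log2FC of 1.20 ± 0.19 (SE, edgeR adjusted p = 4.38e-05), and ACS6 (AT4G11280) of ethylene synthesis had 0.47 ± 0.14 (0.0301).

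CYP71A13 (AT2G30770), the close relative of CYP71A12 in the camalexin pathway, was lower in HO plants by -1.73 ± 0.46 (SE, edgeR adjusted p = 0.0141). It had 39 counts in HO and 120 in AX plants. How reads shared by this similar pair were counted is not given in the sources used here, and their part was not tested. ICS1 (AT1G74710), EDS1 (AT3G48090) and NPR1 (AT1G64280) of salicylic acid signalling had a log2FC of 0.08, 0.13 and 0.24, none of them called. PR1 (AT2G14610) and CYP71B15 or PAD3 (AT3G26830) were under the filter, with 32 and 39 counts in HO and 0 in AX plants.

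Of the 13 other WRKY genes in the table, 4 were tested and 1 was higher over both soils (all genes 5.01%), WRKY49 (AT5G43290), with a log2FC of 1.24 ± 0.35 (SE, edgeR adjusted p = 0.0216). WRKY71 (AT1G29860) was under the filter with 69 counts in HO and 2 in AX plants. Of 7 tested genes of rapid stress and handling, 3 were higher and 1 lower over both soils (all genes 5.01% and 5.16%). The higher ones were ZAT10 (AT1G27730) with 1.68 ± 0.26 (edgeR adjusted p = 5.11e-05), ERF5 (AT5G47230) with 1.08 ± 0.27 (0.00728) and ERF6 (AT4G17490) with 0.60 ± 0.15 (0.00682). The touch gene TCH4 (AT5G57560) was lower by -0.49 ± 0.12 (0.0064). The part of handling in the WRKY differences was not tested. Of the senescence markers, SAG13 (AT2G29350) had 130 counts in HO and 3 in AX plants and SAG21 (AT4G02380) was higher by 0.67 ± 0.13 (edgeR adjusted p = 0.000736). SAG101 (AT5G14930) was also higher over both soils, by 0.56 ± 0.15 (0.0157). NAP (AT1G69490), a NAC factor of leaf senescence, was lower in HO plants with MSU soil, by -1.29 ± 0.23 (edgeR adjusted p = 0.000321), and was not called with Malaka soil (0.16 ± 0.23) or over both soils (-0.58 ± 0.21, adjusted p = 0.0845). Its interaction was called (-1.45 ± 0.33, 0.0473). The part of senescence was not tested either.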

How the data were processed

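The authors trimmed single-end, stranded reads of 50 bases with Trimmomatic 0.39, mapped them with STAR to TAIR10 and counted them per gene with featureCounts (Rsubread), and deposited the raw counts without normalization. The annotation, the strand setting and the handling of reads with several hits are not given in the sources used here. Each library is a pool of rosettes from 1 microbox, and no pair of libraries agreed within sampling noise.

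The quasi-likelihood test of edgeR 4.0.16 (glmQLFit, glmQLFTest, TMM scaling), run in R 4.3.3, was applied to the counts of the 17588 genes that passed filterByExpr (minimum count 10, minimum total 15), with Benjamini-Hochberg adjustment over all of them. Comparisons within and between soils and the interaction were contrasts of a model of the 4 groups, and the comparison over both soils was fitted with soil as a term. Signs are HO minus AX, and MSU minus Malaka. Ratios of low counts carry exact 95% binomial (Clopper-Pearson) intervals. Intervals and floors of 3 counts cover counting error only, since PCR copies were not marked by molecular identifiers.

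Members with CPM per library were those past an adjusted p of 0.05 and a |log2FC| of 1 between HO and AX, and also WRKY15 and WRKY40. Other members are given by ranges and counts. The members, the lists, the subgroups and the rule for naming genes were chosen with earlier results of these data known. Genome positions and exons come from the RefSeq annotation of TAIR10.1. W-boxes were searched in the 300 bases before each start.

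On data simulated for the 17588 genes, a log2FC of 1 was recovered for 76.5% of changed genes with Malaka soil, 88.9% with MSU soil, 96.8% over both soils and 63.6% in the interaction. Changed genes were drawn only from those with a mean of at least 2 CPM. Recovery was not simulated for the tested members under that level: WRKY8, WRKY13, WRKY23, WRKY27, WRKY28, WRKY29, WRKY30, WRKY44, WRKY45, WRKY54 and WRKY69. Alternatives were DESeq2 1.42.0, RLE factors, total counts, removal of ribosomal RNA and organelle genes, 2 other filters, a fold threshold added to or tested inside the model, no soil term, each soil or treatment fitted alone, a replicate block and leaving out each library.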

Additional observations from a re-analysis of the deposited data

How the results depend on the processing

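All 15 members higher over both soils kept their direction under every alternative run, and the count of lower members stayed at 0 with each soil and over both. Leaving out single libraries gave 7 to 11 higher members with Malaka soil, 7 to 10 with MSU soil and 12 to 14 over both soils. It gave 0 to 2 members with an interaction, 0 to 2 between the soils in AX plants and 0 to 3 in HO plants. The counts over all tested genes moved too. Higher genes numbered 267 to 523 with Malaka soil, 372 to 682 with MSU soil and 720 to 987 over both soils. Genes with an interaction numbered 15 to 191, and genes differing between the soils 25 to 190 in AX and 16 to 223 in HO plants. The 191 and the 223 came without HO-Malaka replicate 2. A fold threshold tested inside the model reduced the higher members to 1 with Malaka soil, 4 with MSU soil and 3 over both soils, and left 0 members that differed by soil among AX plants and 0 among HO plants. Of all genes it left 57, 93 and 114 higher, and 1 and 0 that differed by soil among AX and HO plants. Adding a |log2FC| of at least 1 to the adjusted p left 8 over both soils and 0 between the soils in HO plants. Members with an interaction numbered 1 with DESeq2, 1 without ribosomal RNA and organelle genes, and 2 without a filter on low counts. Over all genes these settings gave 57, 59 and 181 interactions, against 49 in the main fit. Members differing between the soils in AX plants numbered 2 with DESeq2, 2 without ribosomal RNA and organelle genes, 3 without a filter and 2 when the AX libraries were fitted alone. Over all genes the calls numbered 131, 134, 258 and 212, against 114 in the main fit. In HO plants the members numbered 0 with total counts, 4 without a filter and 0 when the HO libraries were fitted alone. Over all genes the calls numbered 17, 189 and 18, against 51 in the main fit. The cause was not tested, except that an added fold threshold can only remove calls.

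The deviations of same-numbered libraries of different groups correlated at r from -0.03 to 0.23, with 6 of 18 pairs over 0.1, against 1 of 36 pairs with other numbers (r from -0.21 to 0.12). Since not every pair was over 0.1 and the labels tie the numbers to no shared batch, the numbers were not taken to pair the libraries. With the replicate block, 1 member had an interaction (WRKY18, edgeR adjusted p = 0.00545), 2 differed between the soils in AX plants (WRKY18 and WRKY26) and 3 in HO plants (WRKY47, WRKY33 and WRKY70). Of all 17588 genes, 104, 192 and 116 were called in these comparisons. Without a filter, edgeR also called WRKY72 with Malaka soil (adjusted p = 0.0146) and WRKY55 (0.0351) and WRKY46 (0.0387) over both soils. With a filter of 0.5 CPM in 1 library, WRKY72 (0.0301) and WRKY55 (0.0289) were called in these comparisons and WRKY46 was not (0.0921). WRKY55 had no counts in AX plants and WRKY72 none in AX-Malaka plants, so the filter of 0.5 CPM in 1 library can admit them only through HO libraries and their calls support nothing. Members with few counts are limited by depth, since 3 counts were 0.134 to 0.303 CPM.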
